A study of Mus musculus with 54 samples.

Results

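Zfp980 and Zfp_MB037 are 2 KRAB zinc finger proteins (KZFPs) of mouse, and the data described here are all 168 peaks of their ChIP-seq lists, 114 for Zfp980 and 54 for Zfp_MB037, of 25012 peaks in the lists of 42 KZFPs. Each protein was expressed in excess, carrying an HA tag, from a stable transgene in the mouse embryonal carcinoma line F9 and was precipitated through the tag, so the peaks show where an excess of the protein was found and not where the gene's own product sits. Each list comes from 1 library, Zfp980 from batch 4 and Zfp_MB037 from batch 5, and each was called by the authors against a mixed input of its own batch, with peaks that touch a peak of empty vector control cells removed. The 54 samples of the series also include 4 empty vector controls, 5 mixed inputs and 3 libraries of mouse embryonic stem cells, which have no peak list used here. The empty vector controls are of batches 1, 2 and 4. Batch 5, that of Zfp_MB037, and batch 3 have none of their own. The 2 lists were chosen by measured values, namely the share of their peaks on the internal sequence of intracisternal A particles (IAPs) and the share at promoters and in regions shared with other KZFPs. Those shares are therefore given as a description. With 1 library per protein no test between proteins could be made, and the intervals given are exact 95% binomial intervals that cover counting error only. Peak lists hold no expression, so the F9 label could not be checked against marker genes. They hold no read numbers either, and the read totals that the study gives for its libraries were not used here.

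KZFPs are a large family of vertebrate DNA-binding repressors. A row of zinc fingers reads the DNA, with a few residues of each finger (its fingerprint) contacting the bases, and the KRAB domain recruits TRIM28, which brings histone methyltransferase activity and heterochromatin to the bound site. IAPs are endogenous retroviruses of the mouse that still insert new copies. A full copy has a long terminal repeat (LTR) at each end and, between them, an internal region with a leader that holds the primer binding site, followed by gag, pro and pol. The array of Zfp980 has 13 fingers and that of Zfp_MB037 has 7.

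Zfp_MB037 peaks on IAP internal sequence gathered at a pair of places, a site in gag (27 of 40) and a short tandem repeat in the leader (10). Of the 36 Zfp980 peaks on IAP internal sequence, 8 were counted at the gag site, 10 at the leader repeat and 18 at neither. Both places were counted by exact copies of the strings given below. At each place, 2 strings of 15 bases recurred in the 200 bp around the summits. Those strings fill the motifs that the study derived from the Zfp980 and Zfp_MB037 peaks, which hold ambiguous letters and are named here only by their protein. The gag strings are shown first, then the leader strings, with capitals for the positions at which the gag string and the leader string of a motif have the same letter, 8 of 15 for the Zfp980 motif and 10 of 15 for the Zfp_MB037 motif. The 2 strings of a site lie on opposite strands of the element.
Zfp980 motif, gag site: gggCAGtcggCTTCA
Zfp980 motif, leader repeat: attCAGaactCTTCA
Zfp_MB037 motif, gag site: TCgcCAGcCgcTTTT
Zfp_MB037 motif, leader repeat: TCaaCAGtCtgTTTT

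The gag site is shown where Zfp_MB037 had its highest fold on an IAP and at both sites that lie in a peak of both lists, with both strings in capitals and 5′ to 3′ along the IAP. The 3 genomic copies carry the same 74 bases. Coordinates are in GRCm39.
chr2:90009850-90009923, + strand: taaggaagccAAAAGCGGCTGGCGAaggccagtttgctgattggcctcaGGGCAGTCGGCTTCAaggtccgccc
chr8:120063695-120063768, − strand: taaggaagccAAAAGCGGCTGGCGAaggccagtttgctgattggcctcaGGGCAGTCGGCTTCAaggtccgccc
chr16:12158635-12158708, + strand: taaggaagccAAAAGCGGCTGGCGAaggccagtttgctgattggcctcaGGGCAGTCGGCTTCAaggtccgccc

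The leader repeat is shown under the highest Zfp_MB037 peak and the highest Zfp980 peak on it, 200 bases around each summit, with every exact copy of both strings in capitals. These 2 windows aligned to 52 and 53 of 579 IAP internal copies, and neither could be placed on the single copy used below for positions. The strings recur at a period of 81 bp.
chr17:38358802-38359001, + strand, Zfp_MB037: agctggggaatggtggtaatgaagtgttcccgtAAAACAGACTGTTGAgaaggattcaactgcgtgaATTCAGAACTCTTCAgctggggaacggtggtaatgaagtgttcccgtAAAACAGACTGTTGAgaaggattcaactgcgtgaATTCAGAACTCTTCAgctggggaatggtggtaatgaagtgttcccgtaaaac
chrX:153109652-153109851, − strand, Zfp980: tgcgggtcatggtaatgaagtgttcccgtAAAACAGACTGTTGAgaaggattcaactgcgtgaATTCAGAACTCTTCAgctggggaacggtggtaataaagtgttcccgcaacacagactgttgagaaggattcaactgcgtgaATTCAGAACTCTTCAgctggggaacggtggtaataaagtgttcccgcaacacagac

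The names under which the lists were picked fit Zfp_MB037 and fit Zfp980 only in part. A summit was counted as on IAP internal sequence when at least 100 bp of its 200 bp window aligned at 80% identity or more to any of 579 IAP internal copies, found in GRCm39 as stretches between a pair of direct LTRs. By this measure 40 of 54 Zfp_MB037 summits were on IAP internal sequence, 74.1% (60.3% to 85.0%), and 36 of 113 placed Zfp980 summits, 31.9% (23.4% to 41.3%), against 27.4% of the 24808 summits of the other 40 lists pooled and a median of 16.7% over those lists. The measure also counts repeats that are inserted in a few IAP copies, and many windows of the lists used here to find the LTRs. For those lists, Zfp_MB016 and Zfp_MB036, it counted 3264 of 6170 summits (52.9%) and 206 of 424 (48.6%). Of these 2 lists, 1 and 0 summits aligned to at least 290 copies. The pooled 27.4% includes both lists. Among the 36 Zfp980 windows, 10 aligned to 10 copies or fewer, against 1 of the 40 Zfp_MB037 windows. When a window had to align to most of the copies, a criterion chosen after seeing the data, 35 Zfp_MB037 summits (64.8%, 50.6% to 77.3%) and 19 Zfp980 summits (16.8%, 10.4% to 25%) remained, against 9.15% of the pooled summits of the other lists and a median of 0.118% over them. The share of Zfp_MB037 was the highest of the 42 lists by the wider measure, with Zfp_MB028 next at 71.6%, whose share lies within the interval of Zfp_MB037. By the narrower measure Zfp_MB028, at 71.5%, stood above it.

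**Figure D1:**
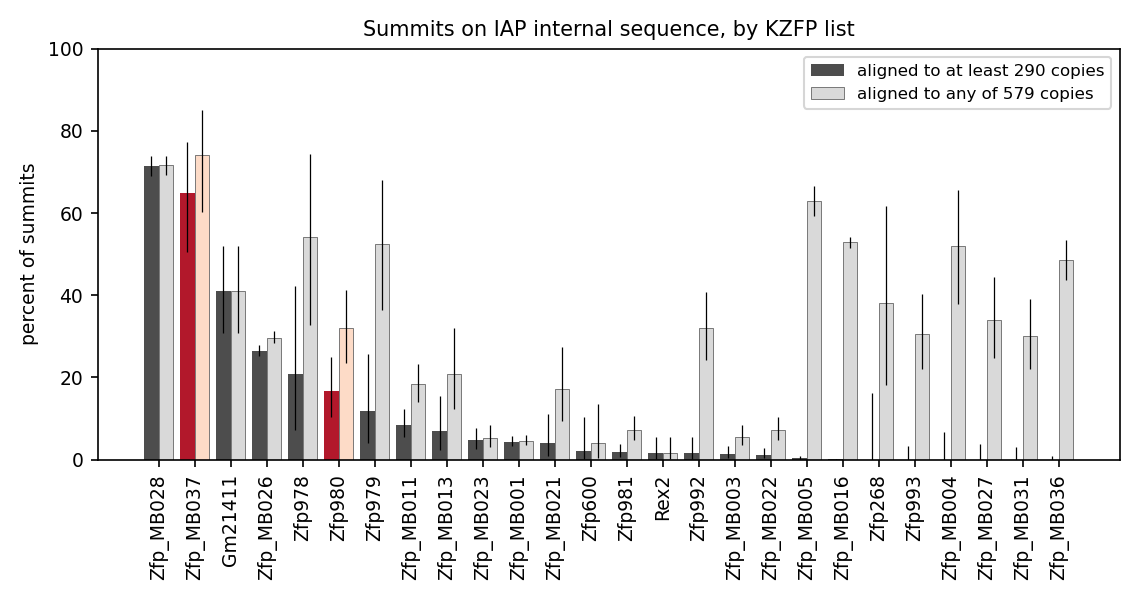
Share of summits on IAP internal sequence, in percent, for Zfp_MB037 and Zfp980 (red and pink bars) and the other lists with a share of at least 1% by the narrow measure or 30% by the wide one (grey bars). Dark bars count windows that aligned to at least 290 copies, pale bars those that aligned to any of 579 copies, and lines are exact 95% intervals. Zfp_MB037 stood at 64.8% and 74.1%, and Zfp980 at 16.8% and 31.9%.

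Promoters did not make up most of either list. Of the Zfp980 summits, 21 of 113 lay within 1000 bp of an annotated transcription start, 18.6% (11.9% to 27%), and of the Zfp_MB037 summits 9 of 54, 16.7% (7.92% to 29.3%), against 27.1% of the summits of the other lists pooled, to which a few large lists contribute most. The median over the other 40 lists was 16.2%, with a range of 1.06% to 79.2%, so both shares were near that of the middle list. The other Zfp980 summits fell in exons (11), introns (38) and between genes (43), and the other Zfp_MB037 summits in exons (6), introns (15) and between genes (24). The shares of peaks found by several KZFPs stood further above those of the other lists. A peak was called shared when it overlapped peaks of KZFPs with at least 3 other fingerprint arrays, of the 32 different arrays in the series. By this measure 45 of 114 Zfp980 peaks were shared, 39.5% (30.4% to 49.1%), and 19 of 54 Zfp_MB037 peaks, 35.2% (22.7% to 49.4%), against 3.05% of the peaks of the other lists. The median share over the other 40 lists was 7.22%, and the highest was 58.9%. Zfp980 was processed in batch 4 with 20 lists in all, and when only lists of other batches were counted its share was 21.9% (14.7% to 30.6%), while that of Zfp_MB037 was 31.5%. No other list overlapped 26 Zfp980 peaks and 2 Zfp_MB037 peaks.

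The fold enrichment of a peak over the mixed input is the authors' own value. Zfp980 peaks had folds of 5.00 to 17.8 with a median of 6.04, and Zfp_MB037 peaks 10.0 to 21.4 with a median of 11.1. The lower ends are the cutoffs of the files, 5 for Zfp980 and 10 for Zfp_MB037, so the medians are not on a common footing. A fold of at least 10 was reached by 10 of the 114 Zfp980 peaks. The 2 lists also differ in how much of the calls they keep, since the highest running number that the peak caller gave to a deposited peak was 1139 for Zfp980 and 9460 for Zfp_MB037. The Zfp_MB037 list is therefore at most 0.571% of its calls and the Zfp980 list at most 10.0%.

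The summits were sorted by the sequence beneath them, into the gag site, the leader repeat, other IAP internal sequence and the rest. These classes were set after the windows had been seen. The first 2 needed an exact copy of one of their strings in the 200 bp window. A window at the same place with a changed base therefore counts as other IAP internal sequence. The gag family described below held 2 such windows of the pair. For Zfp_MB037, 27 of 54 summits lay at the gag site (50.0%, 36.1% to 63.9%), 10 at the leader repeat (18.5%), 3 on other IAP internal sequence and 14 elsewhere. For Zfp980, 8 of 113 lay at the gag site (7.08%, 3.11% to 13.5%), 10 at the leader repeat (8.85%), 18 on other IAP internal sequence and 77 elsewhere. These 18 include all 10 Zfp980 windows that aligned to 10 copies or fewer, and the 3 of Zfp_MB037 include 1 such window. The Zfp980 folds at the gag site were low within their list, 5.01 to 6.35 with a median of 5.32, and those at the leader repeat ran from 5.10 to 9.11 with a median of 6.58. All 9 placed Zfp980 peaks with a fold of at least 10 lay outside IAP internal sequence. For Zfp_MB037 the folds ran from 10.0 to 18.4 at the gag site (median 11.1), from 10.0 to 16.5 at the leader repeat (11.2), from 10.5 to 14.7 on other IAP internal sequence (10.6) and from 10.2 to 21.4 elsewhere (11.1), so the classes overlapped.

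**Figure D2:**
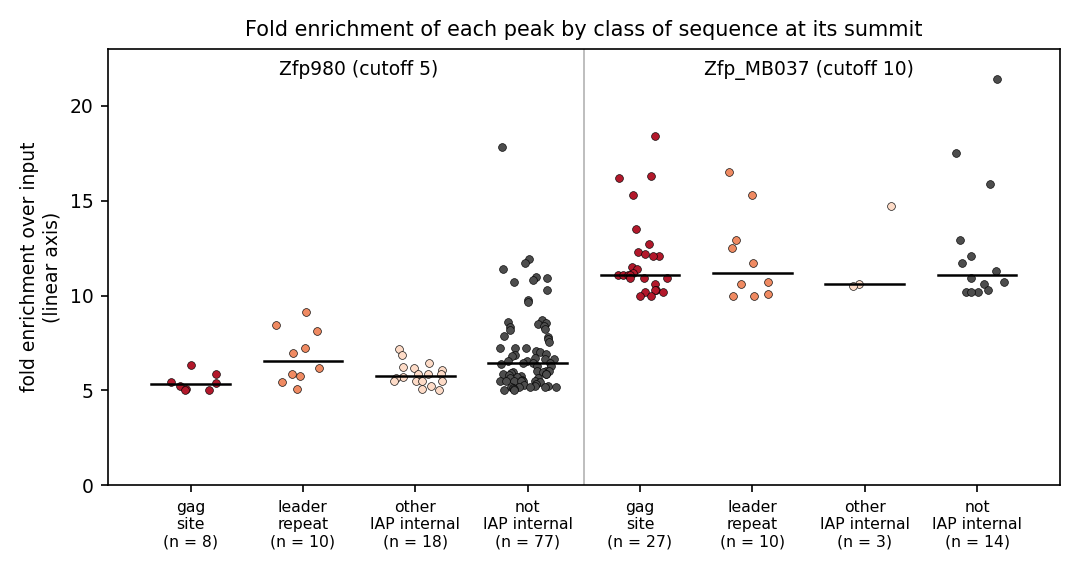
Fold enrichment over input of each peak (points, linear axis) by the sequence at its summit, for Zfp980 (113 placed peaks, cutoff 5) and Zfp_MB037 (54 peaks, cutoff 10), with medians as lines. The Zfp980 gag site peaks lie between 5.01 and 6.35, while the Zfp_MB037 gag site peaks reach 18.4, and the highest peak of each list lies outside IAP internal sequence.

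Positions were read on a single IAP copy, chr16:82380696-82387150 on the + strand of GRCm39, whose 6455 bp lie between LTRs of 337 bp with 100% identity. Its first long open stretch runs over positions 181 to 2010 and by its place is gag, and a second, over 1866 to 5435, is by its place pro and pol. Of the Zfp_MB037 summits, 31 could be placed on this copy, at a median of 733.0 (quartiles 705.5 and 748.5), with 7 in the first 250 bp and 24 between 650 and 1100. The Zfp980 summits were fewer and more scattered, 18 with a median of 774.0 (quartiles 721.2 and 4022), of which 4 lay in the first 250 bp and 9 between 650 and 1100. The remaining 5 lay from 5037 to 6446, in pol and beyond. Leader repeat peaks whose windows did not align to this copy are not among these positions. Zfp_MB011 summits were mostly in the leader, 19 of 29 in the first 250 bp. Zfp_MB026 and Zfp_MB028 used other places, with medians of 1185 (quartiles 1174 and 1193, n = 1085) in gag and 4888 (quartiles 4876 and 4901, n = 1017) in pol. On the same copy the Zfp_MB037 gag string lies at 723 to 737, and the Zfp980 gag string at 762 to 776 with 1 mismatch. The Zfp_MB026 motif lies at 1163 to 1177 and the Zfp_MB028 motif at 4884 to 4894. The 3 places are shown with capitals for the motifs, or for the letters equal to the 2 gag strings.
gag site, chr16:82381408-82381481: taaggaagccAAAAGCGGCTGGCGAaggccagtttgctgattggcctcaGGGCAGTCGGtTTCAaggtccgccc
Zfp_MB026 motif, chr16:82381843-82381887: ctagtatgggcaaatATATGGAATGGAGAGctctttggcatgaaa
Zfp_MB028 motif, chr16:82385564-82385604: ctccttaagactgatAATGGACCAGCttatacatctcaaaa

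**Figure D3:**
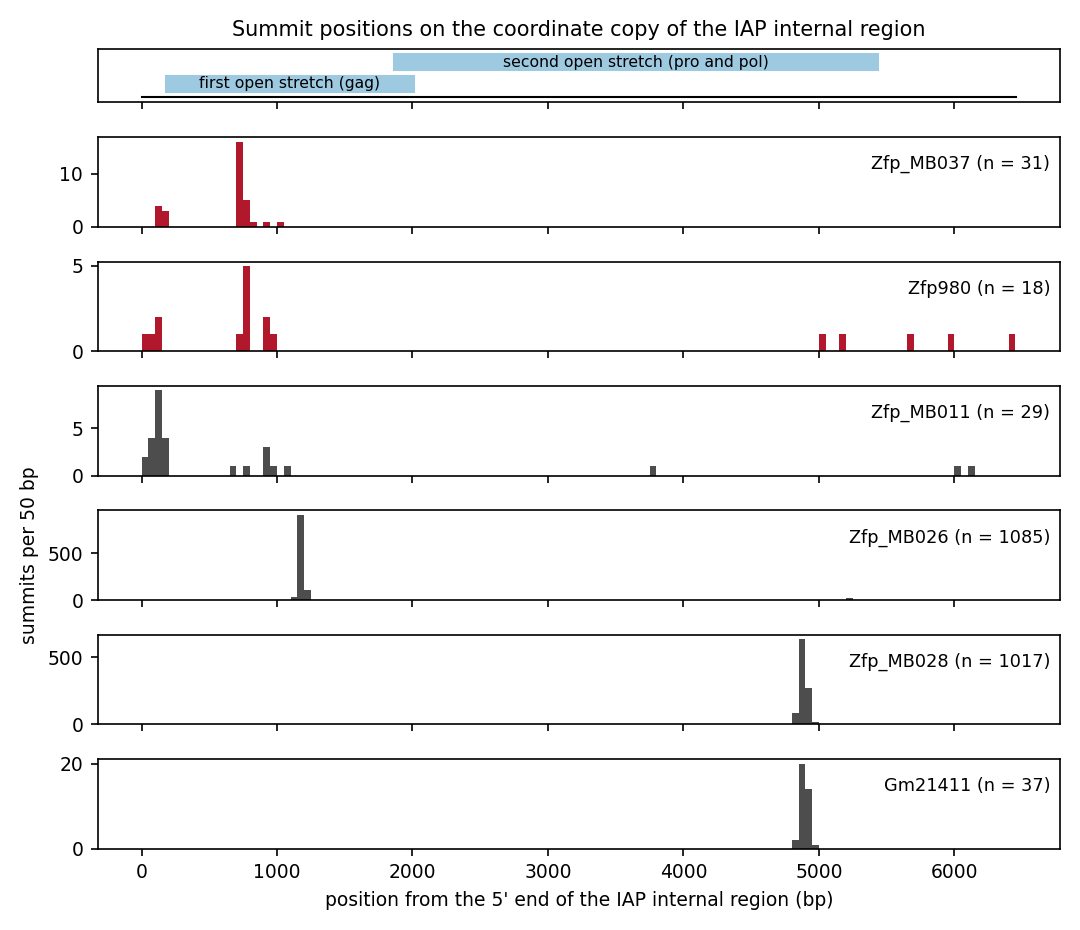
Number of summits per 50 bp along the coordinate copy of the IAP internal region (position in bp from its 5′ end), for Zfp_MB037 (n = 31), Zfp980 (n = 18), Zfp_MB011 (n = 29), Zfp_MB026 (n = 1085), Zfp_MB028 (n = 1017) and Gm21411 (n = 37), each on its own vertical scale. Boxes mark the 2 long open stretches. Zfp_MB037 and Zfp980 share the places near 733 and in the leader, apart from the summits of Zfp_MB026 at 1185 and of Zfp_MB028 at 4888.

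The 2 strings of the gag site stood 39 bp apart, counted between their starts, at all 27 Zfp_MB037 sites and all 10 Zfp980 sites. The Zfp980 string was in the windows of 26 of 54 Zfp_MB037 summits and 8 of 113 Zfp980 summits, against 4 of 294 Zfp_MB011 summits and none of the 4105 Zfp_MB026 and 1423 Zfp_MB028 summits. The Zfp_MB037 string was in 24 and 7 windows of Zfp_MB037 and Zfp980, and in 2 of Zfp_MB011. The motif named for Zfp980 was thus commoner in the windows of Zfp_MB037, at 35 of 54 (64.8%, 50.6% to 77.3%), than in its own, at 18 of 113 (15.9%, 9.72% to 24.0%). The motif named for Zfp_MB037 was in 34 of 54 of its own windows (63.0%) and 16 of 113 Zfp980 windows (14.2%). In the windows of the other 40 lists they stood at 0.379% and 0.387%, and in promoter windows at 0.0119% and 0.00356% of 168600, searched on both strands with no mismatch. None of the windows 1000 bp upstream of the summits of the pair held either one. The motifs were derived from these peaks, and the strings were picked as the commonest in the Zfp_MB037 windows, so their presence is no independent measure. Within these windows, which were selected for holding the strings, distances were measured from the summit to the Zfp_MB037 string in both lists. The median was 24.0 bp for Zfp_MB037 and 38.0 bp for Zfp980 at the gag site, and 19.5 bp and 15.0 bp at the leader repeat. The distance to the Zfp980 string, which starts 39 bp from the other at the gag site, was not measured.

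The leader strings were shared more widely among the lists, but fewer IAP copies held them. Exact copies were in 95 (Zfp980 motif) and 123 (Zfp_MB037 motif) of the 579 IAP copies, against 320 and 425 for the gag strings. The Zfp980 leader string, which is also the motif that the study derived for Zfp_MB011, was in 9 Zfp_MB037 windows and 10 Zfp980 windows, against 26 of 294 Zfp_MB011 windows and 14 of 131 Zfp992 windows. The Zfp_MB037 leader string was in 10 Zfp_MB037 and 9 Zfp980 windows, against 31 of Zfp_MB011 and 14 of Zfp992. Neither was in a Zfp_MB026 or Zfp_MB028 window. When the windows of the pair were aligned to those of all lists, the gag family held 28 Zfp_MB037 and 9 Zfp980 windows beside 16 windows of other lists, 5 of them of Zfp_MB011. The leader family held 10 and 10 beside 85, with 30 of Zfp_MB011 and 14 of Zfp992.

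Few of the available sites were in a peak. GRCm39 holds 875 gag sites with both strings, of which 27 lay in a Zfp_MB037 peak (3.09%, 2.04% to 4.46%) and 10 in a Zfp980 peak (1.14%, 0.549% to 2.09%), and 2 in a peak of both. Among 784 sites with only one of the strings, 1 lay in a Zfp_MB037 peak and none in a Zfp980 peak, which allows up to 0.469%. The same 54 bases from string to string were carried by 702 of the 875 sites (80.2%), and by all 27 sites in Zfp_MB037 peaks and 8 of the 10 in Zfp980 peaks. The strings and their spacing were taken from the Zfp_MB037 windows, so these Zfp_MB037 shares follow in part from that choice. Whether both strings are needed was not tested. The leader string was in a peak more often where it stood in longer runs. Of 130 runs of 3 or more copies, 5 were in a Zfp_MB037 peak (3.85%), 8 in a Zfp980 peak (6.15%) and 15 in a Zfp_MB011 peak (11.5%), against 5, 1 and 12 of 715 runs of 2 copies and 0, 1 and 3 of 1511 single copies. Longer runs also offer more sequence to overlap, and the part of that in the counts was not tested. The authors placed each read with several equally good alignments at random, so which of several near-identical copies carries a peak cannot be told from the lists.

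**Figure D4:**
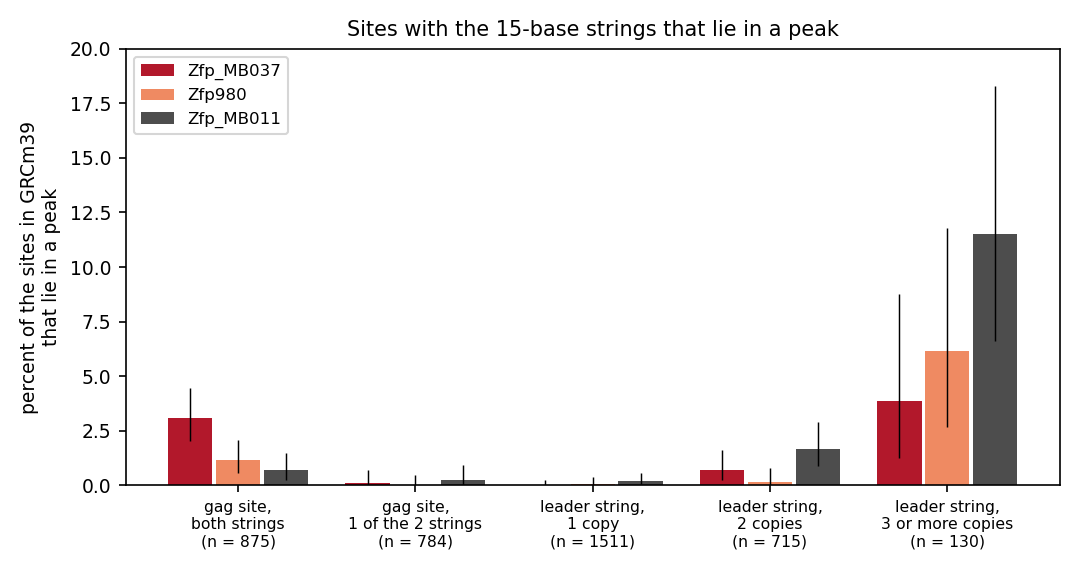
Percent of the sites in GRCm39 with the 15-base strings that lie in a peak of Zfp_MB037, Zfp980 or Zfp_MB011 (bars, with exact 95% intervals as lines), for gag sites with both strings (n = 875) or one of them (n = 784) and for leader strings in runs of 1 (n = 1511), 2 (n = 715) or 3 and more copies (n = 130). Zfp_MB037 is highest at the gag site with both strings, 3.09%, and Zfp_MB011 at the longest leader runs, 11.5%.

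Of the lists compared next, Zfp_MB026 and Zfp_MB028 are from batch 4, whose mixed input Zfp980 also used, and Zfp_MB011 is from batch 3. The overlap with Zfp_MB026 was the widest of Zfp_MB037 and lay side by side rather than at the same place. Of its peaks, 30 of 54 overlapped a Zfp_MB026 peak by at least 1 bp, 55.6% (41.4% to 69.1%), against 2.65% of the peaks of the other 39 lists, and these were 0.731% of the 4106 Zfp_MB026 peaks. Only 1 of the 30 had summits within 100 bp, and the median distance was 354 bp. At the gag site, 26 overlapping peaks had summits 245 to 504 bp from that of Zfp_MB026. Of the gag sites in a Zfp_MB037 peak, 26 of 27 were also in a Zfp_MB026 peak (96.3%, 81.0% to 99.9%), against 226 of 848 of those outside its peaks (26.7%, 23.7% to 29.8%). This count asks a Zfp_MB026 peak to reach upstream as far as the gag strings. A Zfp_MB016 peak lay within 2000 bp of 66.7% (46.0% to 83.5%) of the sites in Zfp_MB037 peaks and 42.1% of the others. For a Zfp_MB028 peak within 5000 bp the shares were 25.9% (11.1% to 46.3%) and 45.0%. Because reads were placed at random among near-identical copies, these contrasts do not tell which copies were bound. The Zfp_MB026 motif itself stood within 700 bp downstream of all 27 sites in Zfp_MB037 peaks and of 83.8% of the other sites. Of the 305 IAP copies of the panel with both gag strings, 15 held a Zfp_MB037 peak and 268 a Zfp_MB026 peak. The Zfp_MB026 peaks that overlapped Zfp_MB037 had folds of 10.7 to 69.7 with a median of 24.0, against a median of 17.1 over all its peaks. For Zfp980, 11 of 114 peaks overlapped Zfp_MB026 (9.65%, 4.92% to 16.6%), again with 1 within 100 bp. Named by the nearest start, those on IAP internal sequence included peaks near Gm56214 (6.89), Gm61342 (5.86), Gm29649 (5.85) and Gm44239 (5.85). Of the gag sites in a Zfp980 peak, 8 of 10 were in a Zfp_MB026 peak, against 244 of 865 outside its peaks (28.2%). The 10 highest Zfp_MB037 peaks over Zfp_MB026 included gag sites near Gm65892 (12.3) and Gm44828 (12.2).

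With Zfp_MB028, whose summits are in pol, Zfp_MB037 had no overlap (0 of 54, which allows up to 6.60%) and Zfp980 had 2 of 114 (1.75%), in Gm57952 on the Y chromosome (10.9) and near Gm54576 (5.08), against 0.880% of the peaks of the other lists. The overlap with Zfp_MB011 was of another kind, with summits close together. It took 43 of 114 Zfp980 peaks, 37.7% (28.8% to 47.3%), and 16 of 54 Zfp_MB037 peaks, 29.6% (18% to 43.6%), against 1.97% of the peaks of the other lists pooled. A few large lists contribute most to that pool. Taken singly, Zfp600 (64.7%) and Zfp_MB025 (58.9%) stood above the pair. Every other list stood below it, with Zfp_MB018 next at 27.5%, so this overlap was not particular to the pair. Summits were within 100 bp in 35 and 15 of them. As a share of the 296 Zfp_MB011 peaks, 13.5% overlapped Zfp980 and 5.74% overlapped Zfp_MB037. Zfp_MB011 peaks had folds of 5.00 to 14.1, and 10 of them reached a fold of 10. With a fold of at least 10 in every list, the overlap with Zfp_MB011 was 4 of 54 for Zfp_MB037 (7.41%) and 3 of 10 for Zfp980 (30.0%). Most of this lay outside IAP internal sequence, at 39 of the 43 and 11 of the 16. The highest such Zfp980 peaks included 2 in Gm57952 (10.9 and 10.7) and another near Gm64623 (10.8).

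Among all lists, Zfp980 overlapped Zfp_MB035 most often (47 of 114, 41.2%), then Zfp_MB011 and Zfp_MB018 (30). As a share of the other list the order was another one, with 35.3% of the 51 Zfp600 peaks and 33.9% of the 56 Zfp_MB025 peaks overlapping Zfp980, against 9.37% of the 459 Zfp_MB035 peaks. The DNA strings that the study predicted from the fingers are shown for Zfp980, for 4 of the lists that it overlaps and for Zfp_MB037, with capitals in those 4 for the longest run that each has in common with Zfp980.
Zfp980: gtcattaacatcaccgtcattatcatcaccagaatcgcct
Zfp_MB035: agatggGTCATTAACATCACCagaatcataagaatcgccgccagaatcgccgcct
Zfp_MB018: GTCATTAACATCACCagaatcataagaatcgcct
Zfp600: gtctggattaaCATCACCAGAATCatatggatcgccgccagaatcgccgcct
Zfp_MB011: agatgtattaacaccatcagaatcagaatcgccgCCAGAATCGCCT
Zfp_MB037: tggagtatgtgtagaattagtt

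These runs were 15 bases for Zfp_MB035 and Zfp_MB018, 13 for Zfp600 and 12 for Zfp_MB011, with a median of 9 over 39 lists. A long run did not go with overlap in every list, since Zfp6001 and Zfp6002 also had 15 bases and overlapped no Zfp980 peak, and Zfp6003 overlapped 2. Short runs also came with overlap. Zfp_MB016 with 5 bases overlapped 22 Zfp980 peaks, Zfp982 with 4 bases 21 and Zfp981 with 5 bases 19, against 18 for Zfp600. These lists differ in size, with 6183, 4746, 335 and 51 peaks, of which 0.340%, 0.358%, 5.67% and 35.3% overlapped Zfp980. Whether run length bears on overlap was not tested. The run that Zfp_MB037 has in common with Zfp980 is 5 bases. For Zfp_MB037 the longest run in common with any list was 7 bases. No window of either list held its whole predicted string, of 40 bases for Zfp980 and 22 for Zfp_MB037, searched without mismatch. The same was true of Zfp_MB026, Zfp_MB028 and Zfp_MB011 with their own strings, so it was no trait of the pair.

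**Figure D5:**
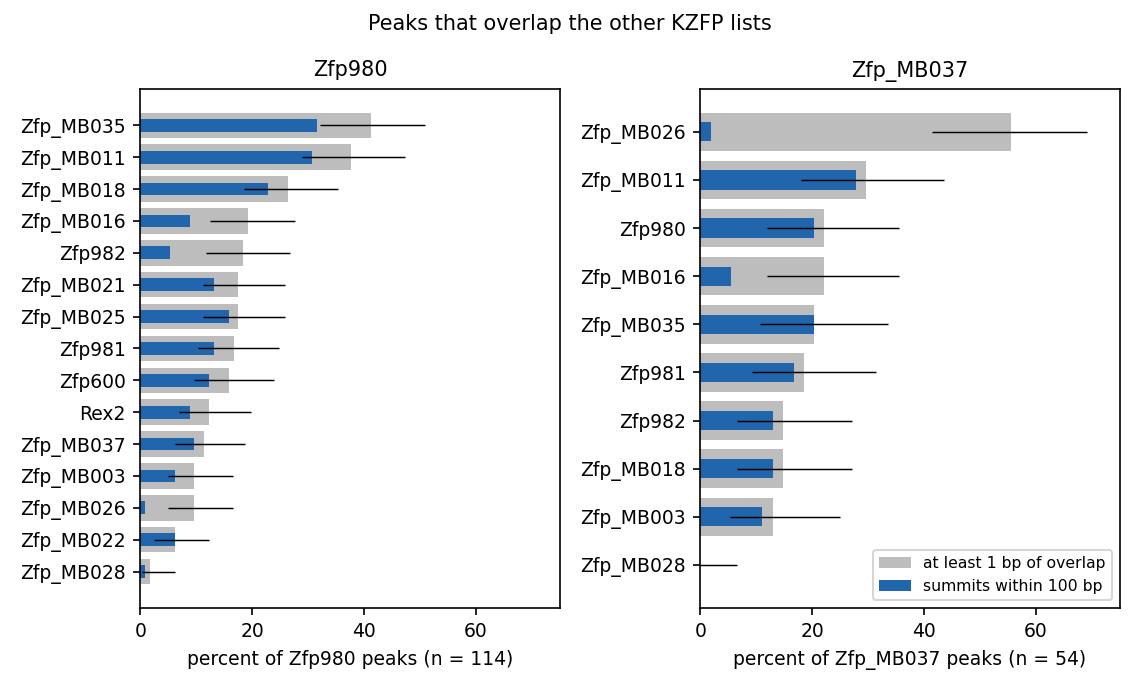
Percent of Zfp980 peaks (left, n = 114) and of Zfp_MB037 peaks (right, n = 54) that overlap each other list by at least 1 bp (grey bars, with exact 95% intervals) or with summits within 100 bp (blue bars), for lists with at least 7 overlapping peaks and for Zfp_MB028. The grey bar of Zfp_MB037 with Zfp_MB026 reaches 55.6% and its blue bar 1.85%, while with Zfp_MB011 they reach 29.6% and 27.8%.

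The 2 lists overlapped each other at 12 Zfp_MB037 peaks (22.2%) and 13 Zfp980 peaks (11.4%), and 11 of the 13 were in shared regions. The Zfp_MB037 fold was the higher in 11 of the 13 pairs, with a ratio of 0.958 to 2.91 and a median of 1.68. Each Zfp_MB037 peak had to reach a fold of 10 and each Zfp980 peak only 5, and the folds are relative to different inputs. Where both folds reached 10, Zfp_MB037 was the higher at Polrmt and Inpp5f. There it was the lower at 1 place of Zfp316 and at 1 place between genes on chromosome 7. How far the cutoffs bear on this order was not tested. The highest Zfp_MB037 peak had a fold of 21.4 for Zfp_MB037 and 9.79 for Zfp980, with the same summit base for both, in the coding sequence of Zfp777, itself a zinc finger gene, and KZFPs with 10 other arrays had a peak there. The 120 bases around that summit are shown on the + strand, opposite to the gene, with the 20 at the summit in capitals.
chr6:48001731-48001850: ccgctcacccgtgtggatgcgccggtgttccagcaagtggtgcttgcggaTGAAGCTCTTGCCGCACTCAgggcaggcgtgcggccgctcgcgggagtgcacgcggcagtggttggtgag

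Promoter peaks in both lists were those of Polrmt, the mitochondrial RNA polymerase, with folds of 17.5 for Zfp_MB037 and 11.9 for Zfp980, of Inpp5f, an inositol phosphatase, where the start of Gm71744 was nearer still (15.9 and 11.7), and of Hmgxb4, an HMG box protein (10.3 and 8.55). The pair had gag site peaks in common on chromosome 8 near Hsbp1 (15.3 and 5.26) and on chromosome 16 (11.2 and 6.35), and leader peaks on chromosome 7 in 4933432K03Rik (12.5 and 7.23) and on chromosome 13 in 9330111N05Rik (11.7 and 6.95). The rest were in an intron of Capn2, a calpain protease (12.9 and 5.83), in an exon of Spred2, an inhibitor of Ras signalling (10.7 and 5.65), in Zfp316, and between genes on chromosome 7 at 137118356 to 137118775 (10.6 and 11). In Zfp316 1 Zfp_MB037 peak (11.3) covered 2 Zfp980 peaks (11.4 and 7.71).

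Zinc finger genes came up again in the list of exon peaks, a group looked at after the values were seen. Summits lay in exons of zinc finger genes for 3 of 54 Zfp_MB037 peaks, in Zfp777, Zfp316 and Zfp444 (5.56%, 1.16% to 15.4%), and for 5 of 113 Zfp980 peaks, in Zfp777, Zfp13, Zfp787 and 2 places of Zfp316 (4.42%, 1.45% to 10.0%), against 0.246% of the summits of the other lists. These were the highest shares of the 42 lists, but both intervals contain the shares of Zfp_MB015, at 4.17% from 1 of 24 summits, and of Zfp_MB011, at 2.38% from 7 of 294. All 8 summits were in coding sequence.

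The other promoter peaks of Zfp_MB037 were at Kmt2a, a histone H3 lysine methyltransferase (fold 12.1, 118 bp from the start), at Gm43852 (11.7), at the small nuclear RNA Gm24305 (10.2), at the pseudogene Gm6728 (10.2), at Stx18, a syntaxin (10.2), where the summit was at a gag site 788 bp from the start, and at Rbm25, a splicing factor (10.9, 7 bp from the start). The Rbm25 peak was the higher of the 2 Zfp_MB037 peaks that no other list overlapped. Zfp980 had further promoter peaks at Ino80d, a subunit of the INO80 chromatin remodeller (8.69), Selenot, a selenoprotein, next to the start of Gm56813 (8.63), and at 2 places of Neat1, the long RNA of paraspeckles (8.20 and 6.39). Those at Gm5790 (6.89), Gm18190 (6.64), Naa25, a subunit of an N-terminal acetyltransferase (6.31), Secisbp2l (6.02), Zc3h12c (6.01), the kinase Tlk2 (5.98) and the RNA helicase Dhx15 (5.85) were lower. The lowest were at Zfx, an X-linked zinc finger factor (5.51), Fbxw4 with Gm59320 (5.48), Rab10os (5.47), Wdr43, a ribosome biogenesis factor (5.34), H3f3a, which encodes histone H3.3 (5.24), and Map2k4, a MAP kinase kinase (5.02). Shared regions held 13 of the 21 Zfp980 promoter peaks and 7 of the 9 Zfp_MB037 ones. Starts of 37 genes lay within 1000 bp of the Zfp980 promoter summits and of 14 genes within that distance of the Zfp_MB037 ones, 0.0474% and 0.0180% of 77986 annotated genes. Of 7 lists of gene symbols looked up there, Zfp980 met the histones at a single peak, which counts for H3f3a and its antisense H3f3aos among 92 symbols, and the nuclear RNAs at 1 of 36, Neat1. It met none of the listed ribosomal, mitochondrial ribosome and import, translation factor or stress genes, nor the list of 474 Zfp, Zkscan and Zscan symbols, which does not hold Zfx. Zfp_MB037 met none of the 7 lists. These counts are too small to set against the share of all genes.

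Among the highest peaks on IAP internal sequence, Zfp_MB037 had gag sites on chromosome 2 in introns of Gm13768 (18.4) and Gm13767 (16.2), on chromosome 9 in Gm47873 (16.3), on the X chromosome near Gm61902 (13.5) and Gm14668 (12.7), and on chromosome 8 (15.3). Its highest leader peaks were on chromosome 17 in Gm66556 (16.5), in an exon of Slc38a1, an amino acid transporter (15.3), and in an intron of Pxt1 (12.9). A peak counted as other IAP internal sequence lay in Gramd1c (14.7). Its summit was at position 743 of the coordinate copy, between the places of the 2 gag strings, but its window held no exact string. The highest Zfp980 peaks on IAP internal sequence were leader repeats, near Samt2b on the X chromosome (9.11), near Gm19147 (8.45) and in Gm67630 (8.13). Lower ones, counted as other IAP internal sequence, were near Gm56214 (6.89) and near Gm23242 (6.47), whose windows aligned to 441 and 519 IAP copies. Those in Gm31374 (7.16) and near Gm73499 (6.25) were counted by the wide measure only, with windows that aligned to 1 and 3 copies.

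Zfp980 peaks gathered on the sex chromosomes, a pattern chosen after the values were seen. The Y chromosome held 13 of 113 (11.5%) and the X chromosome 12 (10.6%), against 0.653% and 4.69% of the summits of the other lists pooled. A few large lists contribute most to that pool, and the shares of single lists were not compared. For Zfp_MB037 the counts were 1 (1.85%) and 4 (7.41%). A stretch of 95.4 kb of the Y chromosome around Erdr1y (90729839 to 90825225) held 9 Zfp980 peaks with folds of 5.95 to 10.9, and another of 303 kb of the X chromosome around Erdr1x, Asmt, Akap17a and Nlgn4l (168802935 to 169106118) held 5, with the highest Zfp980 fold of all, 17.8. All of these 14 peaks were in shared regions. Reads with several equally good alignments were placed at random here too, and the part of that in these counts was not tested. Of the 9 on the Y chromosome, 9 overlapped Zfp_MB035, 8 overlapped Zfp600 and 6 overlapped Zfp_MB011, and of the 5 on the X chromosome 4, 1 and 5 did so in the same order of lists. The Zfp600 list has 51 peaks in all, so peaks in this part of the Y chromosome were not particular to Zfp980. The highest Zfp980 peak that no other list overlapped was also on the Y chromosome, near Gm21763 (10.3). Away from the sex chromosomes, 3 Zfp980 peaks lay within 3.49 kb in Dhrsx on chromosome 4 (5.85 to 8.52).

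Sharing went with fold in the Zfp980 list. Peaks in shared regions had a median fold of 7.25 and the others 5.70, and the 10 peaks with a fold of at least 10 included 9 in shared regions when every list was held to a fold of 10. In the Zfp_MB037 list the medians were 11.3 and 11.1. Fold entered the choice of every deposited peak, so these medians are a description. By sequence alignment, 47 of 54 Zfp_MB037 windows fell in families of 2 or more windows of the pair, and 53 of 113 Zfp980 windows did. Of the Zfp980 windows, 16 aligned to no other window of any list, and of the Zfp_MB037 windows 1 did. In the Zfp980 list, 15 peaks lay outside IAP internal sequence and overlapped no other list. A peak in an intron of Nanog, the pluripotency factor, had a fold of 5.78 and was named after its value was seen.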

How the data were processed

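The deposited peak lists were made by the authors, who aligned the reads to GRCm39 with BWA, with 1 of several equally good places taken at random, and called peaks with MACS2 2.2.7.1 against the mixed input of the batch. The submitters' processing notes also name SAMtools 1.19 and deepTools 3.5.4. Peaks overlapping those of empty vector controls were removed, with cutoffs on q (0.01) and fold. The deposited fold enrichment is a ratio over input. The −log10 p and −log10 q values and the display score are the authors' MACS2 output and entered no test. The deposited summit offset is a distance in bp.

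Windows of 200 bp were aligned with blastn 2.17.0 to 579 IAP internal copies, found as 3 to 9 kb stretches between LTRs of at least 250 bp and 90% identity, each at a Zfp_MB016 or Zfp_MB036 peak. Families were built with the windows of the pair as queries. The 1 Zfp980 peak on a scaffold was left out where sequence or genes were needed. Genes came from GENCODE M39. Intervals were computed with scipy 1.17.1. No value was transformed. The alignment and motif search were tested on simulated data. Genes were named by a rule: the 25 highest promoter peaks of each list, the 10 highest peaks on IAP internal sequence, the peaks in common, up to 10 of the highest that overlap each of Zfp_MB011, Zfp_MB026 and Zfp_MB028, and the highest unshared peak. Members and gene lists were chosen with earlier results of these data known. Promoters on chromosome 18 are not reported here. Alternatives covered the alignment, promoter distance, overlap, sharing and fold cutoffs.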

Additional observations from a re-analysis of the deposited data

How the results depend on the processing

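Of 66 alternatives over 14 shares and positions, 44 stayed within the interval or quartiles of the reported value and 22 moved outside. For Zfp980 on IAP internal sequence, the share was 15.9% with only the coordinate copy, 16.8% with windows aligned to at least 290 copies (chosen after seeing the data), 0% of 9 placed peaks with a fold of at least 10 and 0% of 1 peak with a fold of at least 15; for Zfp_MB037 it was 57.4% with only the coordinate copy. A fold of at least 15 left 1 Zfp980 peak, so its promoter share and its overlaps with Zfp_MB026, Zfp_MB028 and Zfp_MB011 were all 0%, and the overlap of Zfp_MB037 with Zfp_MB011 was 0%. With a fold of at least 10 in every list, that overlap was 7.41%, and the overlap of Zfp980 with Zfp_MB028 was 10.0%. Summits within 100 bp lowered the overlap with Zfp_MB026 to 1.85% for Zfp_MB037 and 0.877% for Zfp980. Peaks in shared regions were 77.2% for Zfp980 and 96.3% for Zfp_MB037 with at least 1 other array, 25.4% and 14.8% with at least 5, and 90% and 20.4% with a fold of at least 10 in every list. With only the lists of other batches, Zfp980 stood at 21.9%. A window of 400 bp moved the median position of Zfp_MB037 to 772.0. The direct limits are 1 library per protein, unequal fold cutoffs, and the random placement of reads among near-identical IAP copies. No paired analysis was possible because each protein has 1 library.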
